A study of Mus musculus with 15 samples.

Results

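The genes described here are Trp53, which encodes the transcription factor p53, and 9 of its known direct target genes. Mdm2, Ccng1, Sesn1, Zmat3, Trp53inp1, Plk2, Aen, Phlda3 and Eda2r are the targets. These 10 genes were found by their symbols among the 20308 genes of the expression table, and all 10 were among the 14151 genes tested. RNA of whole pancreatic islets from C57BL/6 mice was sequenced 48 hr after transduction with an adenovirus that carried ca-Nfatc2, ca-Nfatc1 or GFP. The prefix ca stands for constitutively active, a mutant form of the calcium-regulated factors Nfatc2 and Nfatc1 that stays active without the calcineurin signal, and GFP is the control protein. On each of 5 days the islets of 6 mice were pooled and divided among the 3 viruses, which gives 15 libraries, 5 for each virus, with the replicate number standing for the day. All 3 viruses drove their gene from the cytomegalovirus promoter, which is not restricted to a cell type. Every group therefore carries a virus, and no islets without virus are among the libraries. The ages and sexes of the mice are not given in the labels.

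The p53 protein is held at a low level in most cells by the ubiquitin ligase Mdm2, and it accumulates when DNA is damaged or ribosome assembly is disturbed. It then binds DNA as a tetramer and switches on genes that stop the cell cycle, repair DNA, alter metabolism or start cell death, and Mdm2 is itself such a gene, which closes a feedback loop. Because p53 is controlled largely through the stability and modification of the protein, the level of Trp53 mRNA is not a measure of its activity. In islets p53 is known for its part in beta cell death and in holding back proliferation.

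The p53 binding site is built from copies of a half-site of 10 bases. The windows from 250 bases before to 50 bases after each RefSeq start site (GRCm38.p6, the build that mm10 names) were searched for it, since the members share a regulator by definition but did not move together. A window was given for 8 of the 10 genes, the exceptions being Zmat3 and Trp53inp1. The p53 half-site consensus stood in the windows of 5 of these 8 genes, and in those of 9.55% of all 27025 genes with a window. The full site, 2 half-sites with 0 to 13 bases between them, was in 0 of the 8 genes and in 0.074% of all genes. Only exact matches to the consensus were counted, so sites with any letter off it were missed. The 0 therefore does not mean that these windows hold no full site. A match is a description of the letters and not a measured binding site, and the window does not reach introns, where p53 sites can also lie. The stretches below run 5′ to 3′ on the strand of the gene, with the half-site in capitals.
Trp53, chr11:69580254-69580323, plus strand: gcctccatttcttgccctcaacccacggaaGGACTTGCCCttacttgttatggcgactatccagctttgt
Mdm2, chr10:117710905-117710974, minus strand: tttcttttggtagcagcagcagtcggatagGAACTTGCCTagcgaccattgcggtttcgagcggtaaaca
Ccng1, chr11:40755432-40755501, minus strand: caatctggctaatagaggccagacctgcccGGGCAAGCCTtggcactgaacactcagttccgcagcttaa
Sesn1, second start, chr10:41887236-41887305, plus strand: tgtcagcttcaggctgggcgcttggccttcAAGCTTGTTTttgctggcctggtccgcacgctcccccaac
Aen, chr7:78895927-78895956, plus strand: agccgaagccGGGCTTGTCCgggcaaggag
The half-site began 75 bases before the start site in Trp53, 186 in Mdm2, 185 in Ccng1 and 173 before the second start of Sesn1. In Aen it lay 10 bases after the upstream start site and 121 bases before the downstream one. The Phlda3, Plk2 and Eda2r windows held no match.

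The core letters recognised by NFAT proteins, GGAAA on either strand, are short and stood in the windows of 64.4% of all genes. They were in the windows of 4 of the 8 genes, namely Trp53, Ccng1, Plk2 and Aen, and in no window of Mdm2, Sesn1, Phlda3 or Eda2r. Eda2r, which had the largest rise of the 10 genes with ca-Nfatc2, and Plk2, which had the largest fall with each ca-NFAT, are shown from 250 to 51 bases before the start site, with the NFAT core in capitals where it occurs.
Eda2r, chrX:97377260-97377459, minus strand: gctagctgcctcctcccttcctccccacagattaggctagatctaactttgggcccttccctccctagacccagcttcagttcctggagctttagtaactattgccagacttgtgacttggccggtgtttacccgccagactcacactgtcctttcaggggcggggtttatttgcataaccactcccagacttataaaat
Plk2, chr13:110394794-110394993, plus strand: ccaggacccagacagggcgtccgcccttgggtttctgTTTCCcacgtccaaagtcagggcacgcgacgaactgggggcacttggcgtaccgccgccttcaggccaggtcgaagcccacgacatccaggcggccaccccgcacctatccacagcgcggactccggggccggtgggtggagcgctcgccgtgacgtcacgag
In the Plk2 stretch the core appears as TTTCC, its form on the opposite strand.

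The libraries matched their labels. Nfatc2 was at 37600 to 89098 normalized expected counts with ca-Nfatc2 and at 414 to 693 with GFP, and Nfatc1 was at 24705 to 29292 with ca-Nfatc1 and at 166 to 291 with GFP. A normalized expected count is the number of reads estimated for a gene, divided by a scaling factor of its library. Depth came to 13.4 to 21.1 M expected counts per library. The beta cell markers (Ins1, Ins2, Iapp, Mafa, Slc2a2 and Ucn3) were far above 0 in all groups. Their summed level was 520502 to 937365 with ca-Nfatc2, 775584 to 1163890 with ca-Nfatc1 and 1111000 to 1653810 with GFP. Against GFP, 6 of the 6 were lower with ca-Nfatc2 and 5 of the 6 with ca-Nfatc1. The alpha cell markers (3 of 3 lower with ca-Nfatc2, 2 of 3 with ca-Nfatc1), the delta cell markers (2 of 2 lower with each) and Ppy, the marker of PP cells, lay lower as well. Of 5 endothelial markers 1 was higher and 3 lower with ca-Nfatc2, and 1 was higher and 0 lower with ca-Nfatc1. Leukocyte markers summed to 1203 to 1399 with ca-Nfatc2, 1363 to 1924 with ca-Nfatc1 and 882 to 1430 with GFP, and of 5 markers, 1 was higher and 1 lower with ca-Nfatc2, and 0 were called with ca-Nfatc1. Mesenchymal markers summed to 1910.0 to 3171 with ca-Nfatc2, 2499 to 4744 with ca-Nfatc1 and 2838 to 4595 with GFP, and of 5 markers, 4 were lower with ca-Nfatc2 and 1 with ca-Nfatc1. Of 4 ductal markers tested, 3 were higher and 1 lower with each ca-NFAT, while their summed level was 3026 to 3867 with ca-Nfatc2, 4376 to 5457 with ca-Nfatc1 and 5782 to 6773 with GFP. Acinar markers summed to 4.76 to 45.1 with ca-Nfatc2 (median 22.1), 3.27 to 680.2 with ca-Nfatc1 (median 129) and 4.56 to 107 with GFP (median 5.31), and of 4 tested, 0 were called with ca-Nfatc2 and 3 were higher with ca-Nfatc1. The part of these shifts in the results below was not tested, and in bulk RNA fewer cells of a type and less RNA per cell cannot be told apart.

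With ca-Nfatc2, 4 of the 10 genes were higher and 5 lower than with GFP, and Zmat3 did not pass the test. Those higher were Trp53, Aen, Phlda3 and Eda2r, and those lower were Mdm2, Ccng1, Sesn1, Trp53inp1 and Plk2. Of all genes tested, 35.7% were called higher and 32.8% lower in that comparison, at a limma adjusted p under 0.05. With ca-Nfatc1, 0 of the 10 were higher than with GFP and 5 were lower, namely Mdm2, Ccng1, Trp53inp1, Plk2 and Aen, where 28.4% of all genes were higher and 28.4% lower. Between the 2 factors, ca-Nfatc2 was above ca-Nfatc1 in Trp53, Aen, Phlda3 and Eda2r and below it in Sesn1 and Trp53inp1, so that 4 were higher and 2 lower, against 23.6% and 25.7% of all genes. The median log2 fold change of the 10 genes was -0.26 with ca-Nfatc2 and -0.36 with ca-Nfatc1 against GFP, and 0.21 between the factors. Over all tested genes these medians were 0.01, -0.02 and -0.04. The comparisons with GFP share the GFP libraries, and the difference between the factors has its own test.

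**Figure D1:**
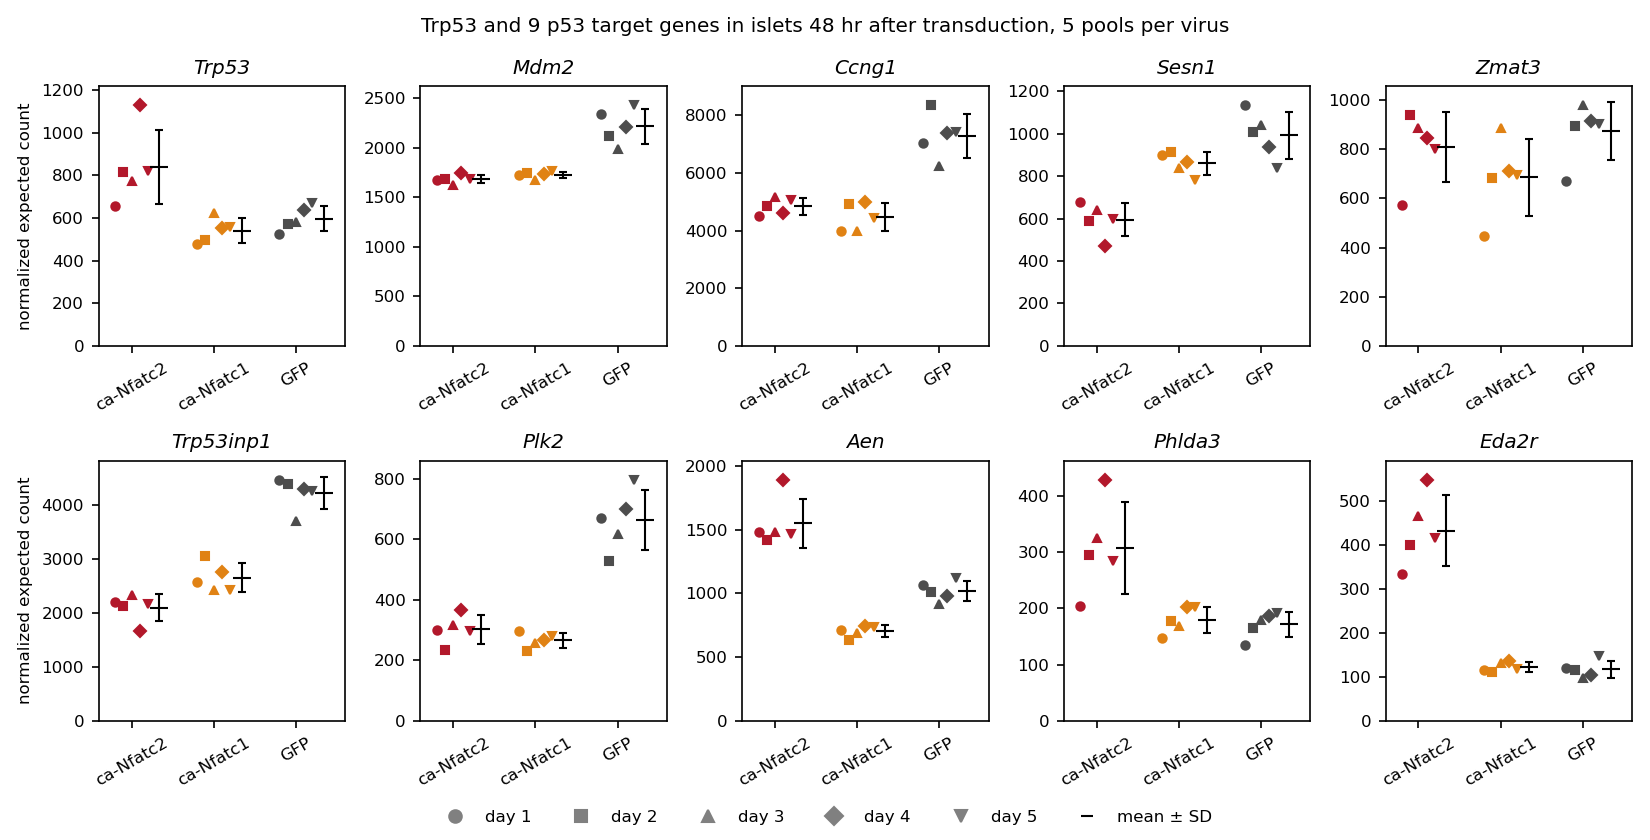
Normalized expected counts (y axes, from 0) of the 10 genes in each library, by virus. Points are islet pools with a symbol for each day, and bars are the mean ± SD of 5 pools. Eda2r, Aen and Phlda3 lay higher in all 5 ca-Nfatc2 libraries than in any GFP library, and Mdm2, Ccng1, Trp53inp1 and Plk2 lay highest with GFP.

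Trp53 itself, on chromosome 11 (69580348 to 69591873), was at 657, 814, 774, 1128 and 818 normalized expected counts with ca-Nfatc2 on days 1 to 5. It was at 476, 496, 621, 552 and 557 with ca-Nfatc1, and at 524, 571, 582, 636 and 669.6 with GFP. The ca-Nfatc2 libraries were the highest of their day on all 5 days. Over the groups as a whole their lowest library, that of day 1, fell just below the highest GFP library, and they did not overlap with ca-Nfatc1. The log2 fold change against GFP was 0.47 with ca-Nfatc2 (standard error 0.12, adjusted p = 0.00154) and -0.14 with ca-Nfatc1 (95% interval -0.39 to 0.10, adjusted p = 0.303). Between the factors it was 0.62 (adjusted p = 2.80e-04). The day 4 library with ca-Nfatc2 held the highest Trp53, and without it the fold change against GFP was 0.36 (adjusted p = 0.00275). No exonic base of Trp53, or of any of the 9 targets, is shared with an exon of another gene in the GENCODE annotation, but the processed pseudogene Trp53-ps on chromosome 17 has no entry in the table, so that reads common to it and Trp53 could not be separated.

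Mdm2, the ubiquitin ligase that marks p53 for degradation (chromosome 10, 117688875 to 117710758), had a narrow spread in the ca-NFAT groups. It was at 1678, 1686, 1621, 1745 and 1682 with ca-Nfatc2, at 1721, 1739, 1669.8, 1733 and 1760.3 with ca-Nfatc1, and at 2336, 2112, 1982, 2211 and 2427 with GFP. Every GFP library was above every ca-NFAT library. Mdm2 fell by 0.39 on the log2 scale with ca-Nfatc2 (standard error 0.06, adjusted p = 5.99e-06) and by 0.36 with ca-Nfatc1 (standard error 0.06, adjusted p = 2.61e-05). The factors differed by -0.04, with a 95% interval of -0.15 to 0.08 (adjusted p = 0.62). Trp53 and Mdm2 thus moved in opposite directions with ca-Nfatc2, while with ca-Nfatc1 Mdm2 was lower and the change of Trp53 did not pass the test.

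Ccng1 encodes cyclin G1, a protein that brings a phosphatase to Mdm2 (chromosome 11, 40748552 to 40755309). Its values were 4496, 4841, 5175, 4618 and 5072 with ca-Nfatc2, 3986, 4914, 3989, 4975 and 4448 with ca-Nfatc1, and 7028, 8346, 6248, 7379 and 7415 with GFP. Again all 5 GFP libraries were above the other 10. The log2 fold change was -0.59 with ca-Nfatc2 (standard error 0.08, adjusted p = 5.52e-06) and -0.71 with ca-Nfatc1 (adjusted p = 8.51e-07). The 2 factors differed by 0.12 (95% interval -0.05 to 0.29, adjusted p = 0.23).

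Among the targets that act in metabolism, autophagy and RNA control, Sesn1 encodes sestrin 1, an inhibitor of the growth kinase complex mTORC1 (chromosome 10, 41810574 to 41908436). It was at 677, 590.5, 641, 472 and 599 with ca-Nfatc2, at 898, 914, 837, 869 and 782 with ca-Nfatc1, and at 1134, 1010.4, 1042, 939 and 837 with GFP. The ca-Nfatc2 libraries were below all others, and the ca-Nfatc1 libraries overlapped with GFP while lying below it on each of the 5 days. Sesn1 fell by 0.74 on the log2 scale with ca-Nfatc2 against GFP (standard error 0.09, adjusted p = 1.90e-06) and by 0.54 against ca-Nfatc1 (adjusted p = 1.47e-04). With ca-Nfatc1 the difference from GFP was -0.20 (95% interval -0.40 to -0.00290), which missed the threshold (adjusted p = 0.0776) and passed it in a fit blocked by day (adjusted p = 0.0223). It also passed without the ca-Nfatc2 library of day 4 (adjusted p = 0.0342), which enters through the shared estimate of the spread, and without the GFP library of day 5 (adjusted p = 0.0262).

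Trp53inp1, a stress-induced protein that promotes autophagy and p53 phosphorylation (chromosome 4, 11156441 to 11174379), was at 2200.5, 2129, 2317, 1668 and 2154 with ca-Nfatc2. With ca-Nfatc1 it was at 2564, 3055, 2417, 2754 and 2418, and with GFP at 4456, 4379.8, 3702, 4284 and 4256. The 3 groups did not overlap, with ca-Nfatc2 lowest, ca-Nfatc1 between and GFP highest. The log2 fold change was -1.02 with ca-Nfatc2 (standard error 0.09, adjusted p = 1.28e-08) and -0.68 with ca-Nfatc1 (adjusted p = 3.30e-06). The difference between the factors, -0.34, also passed the test (adjusted p = 0.00391).

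Zmat3 encodes an RNA-binding zinc finger protein that acts on splicing and mRNA stability (chromosome 3, 32334792 to 32365665). Its values were 572, 939, 886, 845 and 799.9 with ca-Nfatc2, 448, 684, 887, 712 and 696 with ca-Nfatc1, and 669, 893, 979, 916 and 903 with GFP. In every group the library of day 1 was the lowest, and the groups overlapped. The log2 differences were -0.12 with ca-Nfatc2 (95% interval -0.45 to 0.22, adjusted p = 0.524) and -0.37 with ca-Nfatc1 against GFP (95% interval -0.70 to -0.03, adjusted p = 0.0564). In a fit blocked by day the adjusted p of the ca-Nfatc1 difference was 1.36e-04, and Zmat3 was lower with ca-Nfatc1 than with GFP on each of the 5 days. The difference between ca-Nfatc2 and ca-Nfatc1, 0.25, had an adjusted p of 0.204 without the block and of 0.00369 with it. For ca-Nfatc2 against GFP the block gave an adjusted p of 0.108. The values without the block moved with single libraries. Leaving out 1 library also leaves its day unpaired, and no blocked fit was run with libraries left out. Without day 1 in all 3 groups, ca-Nfatc1 was at -0.32 against GFP (adjusted p = 0.00446) and the factors differed by 0.23 (adjusted p = 0.0335). Without the ca-Nfatc1 library of day 1, the difference of ca-Nfatc1 from GFP was -0.22 (adjusted p = 0.173) and that between the factors 0.11 (adjusted p = 0.548). Without the ca-Nfatc2 library of day 1, the difference between the factors was 0.37 (adjusted p = 0.0486), that of ca-Nfatc2 from GFP was 0.00192, and the adjusted p of ca-Nfatc1 against GFP was 0.0323. Without the GFP library of day 1, ca-Nfatc2 was at -0.21 and ca-Nfatc1 at -0.46 against GFP (adjusted p = 0.249 and 0.0207), and without the ca-Nfatc1 library of day 3 ca-Nfatc1 was at -0.47 (adjusted p = 0.0181).

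Plk2, a polo-like kinase with a role in centriole duplication (chromosome 13, 110395044 to 110400844), was at 299.6, 233, 316, 366 and 298 with ca-Nfatc2, at 297, 231, 257, 265 and 279 with ca-Nfatc1, and at 672, 529, 619, 700.4 and 797 with GFP. The lowest GFP library was above the highest of the other 10. Plk2 fell by 1.13 on the log2 scale with ca-Nfatc2 (standard error 0.12, adjusted p = 1.57e-07) and by 1.31 with ca-Nfatc1 (adjusted p = 3.60e-08). It was higher with ca-Nfatc2 than with ca-Nfatc1 on 5 of 5 days, but by only 0.18 (95% interval -0.07 to 0.42, adjusted p = 0.231).

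**Figure D2:**
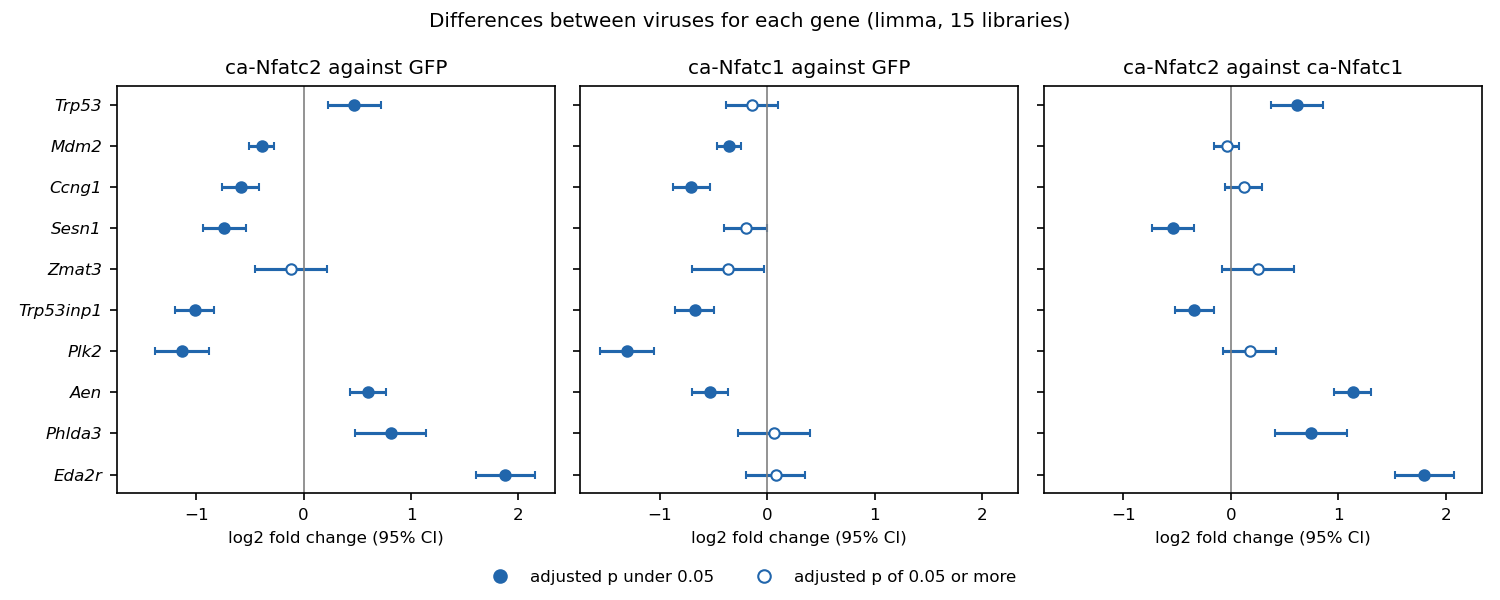
Log2 fold change (x axes) of each gene in 3 comparisons, with 95% intervals. Filled points passed an adjusted p of 0.05. Aen lay at 0.60 with ca-Nfatc2 and at -0.53 with ca-Nfatc1 against GFP, and Eda2r at 1.88 and 0.08.

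The 3 targets that rose with ca-Nfatc2 were Aen, Phlda3 and Eda2r. Aen, which encodes a nuclease that promotes apoptosis (chromosome 7, 78895927 to 78911209), was at 1484, 1420.5, 1485, 1893 and 1470.3 with ca-Nfatc2, at 715, 633, 686, 747 and 737 with ca-Nfatc1, and at 1065, 1008, 918, 980.3 and 1122 with GFP. The 3 groups did not overlap, with GFP in the middle. Aen was the only one of the 10 genes that passed the test in opposite directions with the 2 factors, by 0.60 with ca-Nfatc2 (standard error 0.08, adjusted p = 3.10e-06) and by -0.53 with ca-Nfatc1 (adjusted p = 1.84e-05). The difference between the factors was 1.13 (adjusted p = 5.21e-09). Without the high day 4 library the ca-Nfatc2 rise was 0.53 (adjusted p = 2.50e-06).

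Phlda3 encodes a repressor of the survival kinase Akt whose loss is known in human pancreatic neuroendocrine tumours (chromosome 1, 135766085 to 135769134). It was at 204, 296, 326, 429 and 284 with ca-Nfatc2, at 146, 177, 169, 202 and 203 with ca-Nfatc1, and at 135, 165, 180.0, 186 and 192 with GFP. The ca-Nfatc2 libraries were above all others, although that of day 1 was barely so, and ca-Nfatc1 and GFP overlapped. On the log2 scale the rise with ca-Nfatc2 was 0.81 (standard error 0.16, adjusted p = 2.00e-04), and 0.68 without the day 4 library (adjusted p = 4.33e-04). With ca-Nfatc1 the value against GFP was 0.06 (95% interval -0.27 to 0.39, adjusted p = 0.751), and the factors differed by 0.75 (adjusted p = 8.07e-04).

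Eda2r, on chromosome X (97333837 to 97377234), encodes a receptor of the tumour necrosis factor family for ectodysplasin A2. Its values were 334, 399, 466, 547 and 414 with ca-Nfatc2, 115, 111, 131, 135 and 117 with ca-Nfatc1, and 119.9, 115, 96.1, 104 and 146 with GFP. The lowest ca-Nfatc2 library was above the highest of the other 10, and the ca-Nfatc1 and GFP libraries overlapped. The mean with ca-Nfatc2 was 3.71 times that with GFP, a log2 fold change of 1.88 (standard error 0.13, adjusted p = 7.42e-10). The value with ca-Nfatc1 was 0.08 (95% interval -0.20 to 0.35, adjusted p = 0.628), and the factors differed by 1.80 (adjusted p = 7.26e-09).

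Within a group the 10 genes did not vary alike. The day 4 library with ca-Nfatc2, which also had the highest Nfatc2 of all libraries (89098), was the highest of its group for Trp53, Mdm2, Plk2, Aen, Phlda3 and Eda2r and the lowest for Sesn1 and Trp53inp1. The day 1 library with ca-Nfatc2 had the lowest Nfatc2 of its group (37600) and the lowest Trp53, Ccng1, Zmat3, Phlda3 and Eda2r. Day 1 was also the lowest day for Trp53, Phlda3 and Zmat3 with ca-Nfatc1 and with GFP, groups that did not receive the Nfatc2 virus, and for Ccng1 with ca-Nfatc1. Whether the amount of Nfatc2 had a part in the spread of the ca-Nfatc2 libraries was not tested. The 9 calls with ca-Nfatc2 against GFP held their direction and passed the test without either library.

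**Figure D3:**
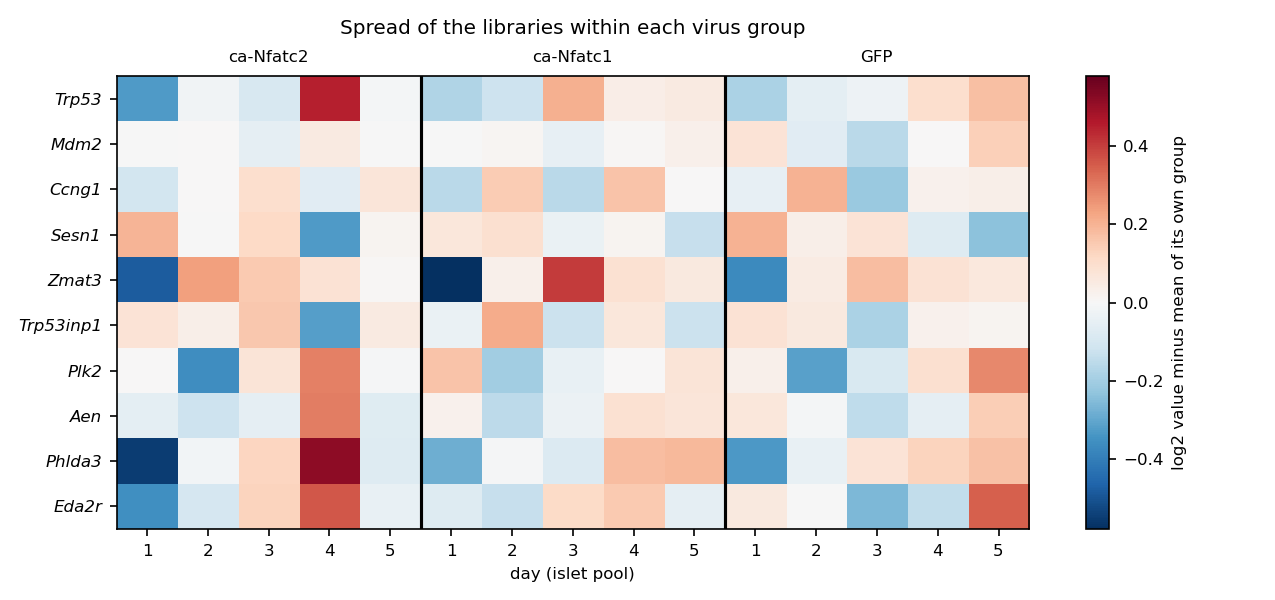
Log2 value of each gene (rows) in each library (columns, by virus and day) minus the mean of its own group. Trp53, Ccng1, Zmat3 and Phlda3 were below their group mean on day 1 in all 3 groups, and on day 4 the ca-Nfatc2 library was far above its mean for Trp53, Aen, Phlda3 and Eda2r.

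The 5 genes whose log2 values correlated most closely with Trp53 over the 15 libraries, among those with a mean of at least 100, were Pprc1 (Pearson r 0.969), Smyd5 (0.964), Morc2a (0.960), Eif4e2 (0.958) and Mybbp1a (0.953). The points share their libraries, days and virus groups, so these values describe the pattern over viruses more than the variation within a virus. None of the 9 targets was among the 5.

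Other genes of the p53 pathway were described from a list of 60, of which 59 were in the table, all but Pidd1. Of these, 57 were tested, since the p53 relatives Trp63 and Trp73 were below the filter on low values. With ca-Nfatc2, 27 were higher and 17 lower than with GFP, and 13 did not pass, beside 35.7% higher and 32.8% lower of all genes. With ca-Nfatc1 there were 17 higher and 16 lower, beside 28.4% and 28.4% of all genes, and between the factors 16 higher and 16 lower, beside 23.6% and 25.7%. Under quantile normalization the list had 22 higher and 20 lower with ca-Nfatc2, 14 higher and 20 lower with ca-Nfatc1, and 19 higher and 16 lower between the factors. Without that normalization the median log2 fold changes of the list were 0.12, 0.01 and 0.10. The list was chosen with earlier results known, and these counts and medians stand as a description.

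Cdkn1a, which encodes the cyclin-dependent kinase inhibitor p21 and is the best known arrest target of p53, was at 1964, 2513, 2865, 2611 and 2210 with ca-Nfatc2, at 1376, 1528, 1565, 1955 and 1635 with ca-Nfatc1, and at 1169, 1360, 1430, 1588 and 1668 with GFP. The lowest ca-Nfatc2 library was just above the highest of the other 10, and ca-Nfatc1 overlapped with GFP. Cdkn1a rose by 0.75 on the log2 scale with ca-Nfatc2 (standard error 0.11, adjusted p = 1.28e-05), against 0.16 with ca-Nfatc1 (95% interval -0.08 to 0.40, adjusted p = 0.236). The factors differed by 0.59 (adjusted p = 3.26e-04).

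All 7 arrest targets passed the test with ca-Nfatc2, 4 higher and 3 lower, and 5 passed with ca-Nfatc1, 1 higher and 4 lower. Of all genes, 35.7% were higher and 32.8% lower with ca-Nfatc2, and 28.4% were higher and 28.4% lower with ca-Nfatc1. The arrest targets higher were Cdkn1a, Psrc1, Gtse1 and Rprm with ca-Nfatc2, and Rprm with ca-Nfatc1. Rprm lay near the filter on low values, with means of 15.9 with ca-Nfatc2, 9.14 with ca-Nfatc1 and 5.16 with GFP. Psrc1 and Gtse1, which encode proteins of the mitotic spindle and microtubules, separated the factors most. Psrc1 was at 117 to 187 with ca-Nfatc2, at 27.7 to 46.7 with ca-Nfatc1 and at 28.3 to 40.2 with GFP, a log2 fold change of 2.06 with ca-Nfatc2 (adjusted p = 8.22e-09). Gtse1 was at 103 to 217 with ca-Nfatc2, 22.1 to 41.2 with ca-Nfatc1 and 39.0 to 67.2 with GFP. It passed the test in opposite directions, at 1.33 with ca-Nfatc2 (adjusted p = 3.09e-05) and -0.75 with ca-Nfatc1 (adjusted p = 0.007). Sfn, the arrest protein 14-3-3 sigma, was lower with ca-Nfatc1 by -0.75 (adjusted p = 0.00104) and with ca-Nfatc2 by -0.54 (adjusted p = 0.00898). Gadd45a and Btg2 were also lower with both factors. Gadd45a was at -1.15 with ca-Nfatc2 (adjusted p = 9.32e-09) and -0.56 with ca-Nfatc1 (adjusted p = 8.57e-05). Btg2 was at -0.88 (adjusted p = 5.52e-10) and -0.22 (adjusted p = 0.00474).

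Of 13 cell death targets tested, 7 were higher and 3 lower with ca-Nfatc2, and 5 were higher and 3 lower with ca-Nfatc1 (all genes: 35.7% and 32.8%, then 28.4% and 28.4%). Bid, which links death receptors to mitochondria, was at 874 to 1042 with ca-Nfatc2, 1763 to 2263 with ca-Nfatc1 and 239 to 325 with GFP. Its rise was 1.72 with ca-Nfatc2 and 2.74 with ca-Nfatc1, and the factors differed by -1.01 (adjusted p = 5.22e-08). Shisa5, an endoplasmic reticulum protein that promotes apoptosis, likewise rose more with ca-Nfatc1 (1.39) than with ca-Nfatc2 (0.94), a difference of -0.45 (adjusted p = 0.00111). Steap3, a metalloreductase, rose by 1.64 with ca-Nfatc2 and 1.27 with ca-Nfatc1, and the factors differed by 0.37 (adjusted p = 0.0678, and 0.0386 when blocked by day). The death receptor gene Tnfrsf10b rose with ca-Nfatc2 (0.78, adjusted p = 8.69e-05), was at 0.18 with ca-Nfatc1 (adjusted p = 0.294), and differed between the factors by 0.61 (adjusted p = 0.00173). The 3 lower with ca-Nfatc2 were Bax (-0.21, adjusted p = 0.026), Pmaip1 (-0.59, adjusted p = 0.0272) and Bbc3 (-0.34, adjusted p = 0.0499). With ca-Nfatc1 the 3 lower were Bax (-0.48), Pmaip1 (-0.84) and Perp (-0.72), and Bbc3 did not pass (adjusted p = 0.0543).

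Among the 20 regulators of p53, 9 were higher and 4 lower with ca-Nfatc2, and 5 were higher and 4 lower with ca-Nfatc1 (all genes: 35.7% and 32.8%, then 28.4% and 28.4%). Chek1, a checkpoint kinase, was at 208 to 255 with ca-Nfatc2, 337 to 394 with ca-Nfatc1 and 71.2 to 114 with GFP, so that it rose by 1.34 with ca-Nfatc2 (adjusted p = 1.84e-08) and by 1.96 with ca-Nfatc1 (adjusted p = 1.46e-10). Hipk2, a kinase that phosphorylates p53, rose by 1.11 with each factor. Atr, the kinase that activates Chek1 when replication stalls, rose with ca-Nfatc2 by 0.66 (adjusted p = 3.77e-07) and was at -0.04 with ca-Nfatc1 (adjusted p = 0.639), and the factors differed by 0.70 (adjusted p = 5.83e-07). The 4 regulators lower with ca-Nfatc2 were Rchy1 (-0.62), Kat5 (-0.46), Ep300 (-0.45) and Sirt1 (-0.24). With ca-Nfatc1 the 4 lower were Chek2 (-0.81), Rchy1 (-0.31), Kat5 (-0.26) and Usp7 (-0.24). Regulators that activate p53 and those that inhibit it were not separated in these counts.

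In the group of repair and metabolism targets, 7 of 17 were higher and 7 lower with ca-Nfatc2, and 6 were higher and 5 lower with ca-Nfatc1 (all genes: 35.7% and 32.8%, then 28.4% and 28.4%). Cd82, a tetraspanin of the cell membrane, was at 3377 to 4700 with ca-Nfatc2, 6104 to 7396 with ca-Nfatc1 and 994 to 1306 with GFP, a rise of 1.73 with ca-Nfatc2 and 2.57 with ca-Nfatc1. Rrm2b, the ribonucleotide reductase subunit that p53 induces, fell by 0.55 with ca-Nfatc2 (adjusted p = 1.43e-05) and was at -0.05 with ca-Nfatc1 (adjusted p = 0.642), a difference of -0.51 (adjusted p = 8.59e-05). Larger falls were seen for Ak1 and Sesn2. Ak1 was at -1.44 with ca-Nfatc2 and -1.12 with ca-Nfatc1, and Sesn2 at -1.18 and -1.21, and all of these passed the test.

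**Figure D4:**
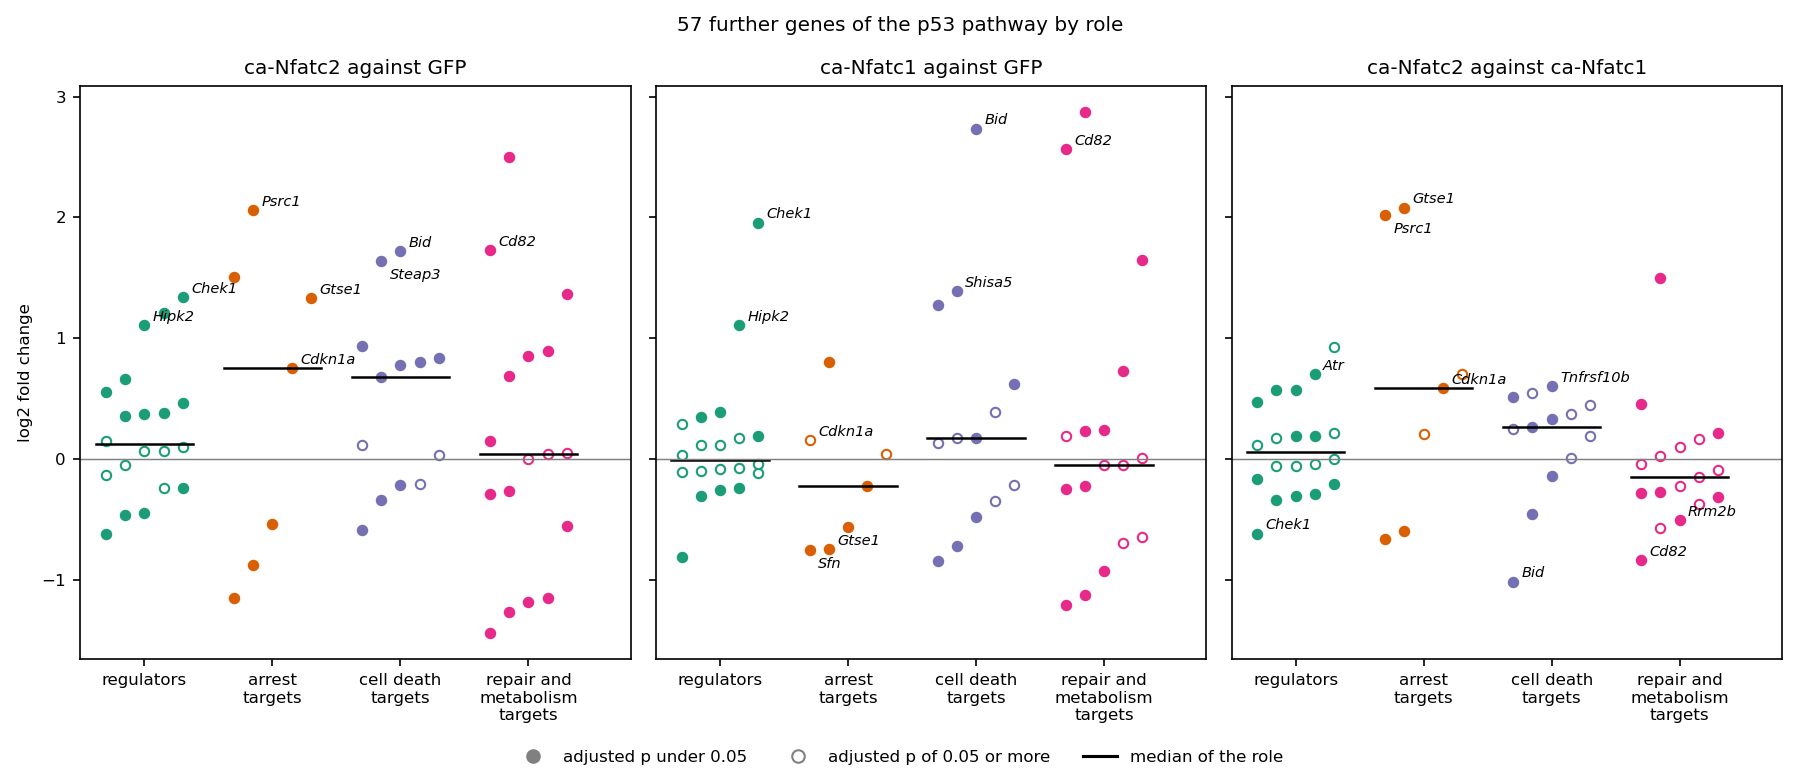
Log2 fold change (y axis) of 57 further p53 pathway genes by role in 3 comparisons. Each point is a gene, filled where it passed an adjusted p of 0.05, and lines are medians. The median of the 7 arrest targets lay at 0.75 with ca-Nfatc2, the value of Cdkn1a, and at -0.22 with ca-Nfatc1, the value of Btg2. Each role held genes on both sides of 0.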

How the data were processed

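Reads had been mapped by the authors to mm10 RefSeq transcripts (bowtie), and RSEM gave expected counts (versions not given in the sources used here). They divided these by a median-by-ratio factor per library, and this normalized signal is what the authors deposited. Their group means, fold changes and EBSeq posterior probabilities were not used.

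Genes with a 75th percentile above 10 over 15 libraries were tested, 14151 of 20308. Values were taken to log2(value + 1), a scale that understates changes of low genes, and analysed with limma 3.58.1 in R 4.3.3, using 3 group means, a variance trend and Benjamini-Hochberg adjustment at 0.05 (two-sided). Tests were checked on simulated data with independent libraries and no day effect, so that check does not cover the pairing by day. No day effect was fitted, following the authors' EBSeq model. The same islet pool was divided over the viruses, so days pair the libraries by design. Residuals of same-day libraries correlated at 0.0544 to 0.473 (mean 0.219, 15 pairs). Those of libraries from different days and different groups correlated at -0.277 to 0.338 (mean -0.0551, 60 pairs).

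Members and lists were chosen with earlier results of these data known. Named genes are the 10 members, Cdkn1a, and per role and comparison the 2 largest changes among called genes with a mean of at least 50. A gene that this rule names is not reported here. Alternatives covered pseudocount, filter, scaling, variance model, day block and left-out libraries. Promoter sequences are RefSeq's (GRCm38.p6).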

Additional observations from a re-analysis of the deposited data

Results flagged for a closer look

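In each of the 30 groups made by 10 genes and 3 viruses, the highest and the lowest library were compared with their nearest neighbour by Dixon's ratio, with a critical value of 0.71 for 5 libraries. Chance flags about 1 group in 20. Aen stood at 1893 in the ca-Nfatc2 library of day 4, with 1485 as the next highest. Trp53inp1 stood at 1668 in the same library, with 2129 as the next lowest. Trp53inp1 stood at 3702 in the GFP library of day 3, with 4256 next. Zmat3 stood at 669 in the GFP library of day 1, with 893 next. No other group of the 30 passed the critical value.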

How the results depend on the processing

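All 20 calls of members held their direction and passed the test under every alternative run, namely 10 other settings and the leaving out of each library, and of each day, which was added after seeing the data. Of the 900 values under these alternatives, 884 gave the same call. The other 16 crossed the threshold upward, 5 of them for Sesn1 and 8 for Zmat3 with ca-Nfatc1 against GFP, and 3 for Zmat3 between the factors. For the day as a replicate block the adjusted p-values were 0.0223, 1.36e-04 and 0.00369. Quantile normalization gave 0.032 for Sesn1 and 0.0303 for Zmat3 with ca-Nfatc1, and a fit of only the groups compared gave 0.0472 and 0.0499. The remaining 9 came from left-out libraries or days. Those of single libraries are given above with each gene, and leaving out a whole day gave Zmat3 an adjusted p of 0.00446 (day 1) and 0.0491 (day 3) with ca-Nfatc1 and of 0.0335 (day 1) between the factors. The causes were not tested. The block changed no other call of a member. Members called numbered 9 with ca-Nfatc2 throughout, 5 to 7 with ca-Nfatc1 and 6 to 7 between the factors. Quantile normalization moved the median of all genes with ca-Nfatc2 against GFP from 0.01 to -0.10, and gave 3266 genes higher and 5272 lower with ca-Nfatc1 where the reported fit gave 4015 and 4022. A count test in edgeR was not run, since the steps between values gave whole expected counts for only 64.5% to 70.4% of values. Zmat3 had the largest standard error of the members in the fit without the day block (0.16 on the log2 scale). With the block it was 0.064. No uninfected islets, protein levels or p53 activity were analysed here.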
